A study of Mus musculus with 14 samples.

Results

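Away from annotated genes, macrophages with less Wdr82 carried more RNA from long stretches of intergenic DNA. The regions described here are the distal intergenic ones among 1107 non-gene regions that the study's authors marked in the mouse genome (mm9). A region was taken as distal when it overlapped no gene span, counted from the first to the last exon base of a gene on 1 chromosome and strand. In addition, neither of its edges lay within 5 kb of a gene start or within 30 kb of a gene end. This rule uses place alone and no count, and it held for 240 of the 1107 regions (21.7%). The other regions were 441 that overlapped a gene, 203 with a gene start within 5 kb and 223 with a gene end within 30 kb. The authors had drawn all regions from a SICER comparison, a search for broad enriched stretches, of hairpin against vector (LMP) libraries in untreated cells. Regions with more signal in hairpin cells were therefore favoured from the start, and the direction of their change is not independent evidence.

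The cells were bone marrow-derived macrophages of FVB/Hsd mice on the 7th day of differentiation, which means precursor cells turned into macrophages in culture. All 4 libraries analysed here came from cells that carried a retroviral short hairpin RNA and had been selected with puromycin, received no treatment, and gave ribosomal RNA-depleted total RNA. The control group was 2 libraries with a scrambled hairpin (scrambled 1 and scrambled 2), and the knockdown group was a library of the Wdr82 hairpin sh1137 and a library of the hairpin sh830. The other 10 of the 14 samples of the series, with 4-thiouridine-labelled RNA, lipopolysaccharide (10 ng/ml for 45 min), a Menin hairpin or the hairpin sh790, were not analysed here. Each Wdr82 hairpin has a single library, so a hairpin's own effect and the spread between cultures cannot be told apart. The labels do not say that the libraries came from separate cultures or animals, and the p-values rest on these 4 libraries only. The main test also holds a term for a split between the libraries given below, which leaves 1 residual degree of freedom. Its p-values rest on how alike the 2 differences of hairpin to control were, with information shared over features. They do not measure the spread within a group.

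Wdr82 is a WD-repeat protein that belongs to the SET1 complexes, which methylate histone H3 at lysine 4, and to complexes with the PP1 phosphatase and with the zinc finger protein Zc3h4 that take part in ending transcription. RNA polymerase II starts at enhancers and at the upstream side of promoters as well as at genes. Such transcripts are normally short, because transcription ends early and the nuclear RNA exosome degrades the product. Factors such as Spi1 (PU.1), Cebpb and the AP-1 proteins mark the enhancers of macrophages, many of which lie far from any gene.

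One of the largest groups of distal regions described here, between Mir29b-1 and Mkln1, is flanked by a microRNA gene. The RefSeq sequences (GRCm38.p6) of the mature microRNAs of this neighbour are given to identify it, with the seed, bases 2 to 8, in capitals.
mmu-miR-29b-3p: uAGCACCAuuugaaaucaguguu
mmu-miR-29b-1-5p: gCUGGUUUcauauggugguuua

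The targeted gene was checked in each library first. Wdr82 (chr9:106073260-106094037, plus strand) had 4102 and 5744 exon counts in scrambled 1 and 2, 941 under sh1137 and 1719 under sh830. Scaled to 1000000 counts of effective library size (CPM) this is 121 ± 30.6 CPM (SD, n = 2) in the scrambled and 32.6 ± 10.9 (SD, n = 2) in the knockdown libraries. It fell by 1.91 on the log2 scale (SE 0.094, adjusted p = 0.0022 in edgeR's quasi-likelihood test). Both knockdown libraries were below both scrambled ones.

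Gene exons held between 34787556 and 43372731 counts per library. The libraries also differed in a way the groups do not explain: introns took 40.4% of the exon plus intron counts in scrambled 1 and 44.2% under sh1137, but 14.6% in scrambled 2 and 15.2% under sh830. They are called the intron-rich pair (scrambled 1, sh1137) and the intron-poor pair (scrambled 2, sh830) below, and the test holds a term for this split beside the group. The macrophage markers were high throughout, with a summed level of 10058 and 12005 CPM in scrambled 1 and 2, 8502 under sh1137 and 14997 under sh830, and none of the 8 was at 0. Of these 8 markers, 2 fell, beside 7.79% of all genes tested: Cd68 by 0.94 (edgeR adjusted p = 0.00848) and Fcgr1 by 1.51 on the log2 scale (edgeR adjusted p = 0.00305). The summed level of 5 fibroblast markers was 9.50 and 41.5 CPM in the scrambled libraries, 43.7 under sh1137 and 144 under sh830. Of these, 2 rose, beside 6.06% of all genes tested: Pdgfrb by 2.13 (edgeR adjusted p = 0.00395) and Col1a1 by 2.58 on the log2 scale (edgeR adjusted p = 0.00475). Only Pdgfrb had no overlap between the groups, with 8.54 and 9.48 CPM in the scrambled libraries, 41.9 under sh1137 and 36.9 under sh830. Col1a1 was at 0.0967, 9.15, 0.765 and 52.7 CPM in the same order. In Col1a1, Col1a2, Col3a1 and Dcn, scrambled 2 was above sh1137, and Col3a1 was at 0 in scrambled 1. The part of the fibroblast markers in the results below was not tested, and in bulk samples more cells of a type and more RNA per cell cannot be told apart. The summed markers of B cells, T cells, neutrophils, dendritic cells, mast cells with basophils and eosinophils, platelets and erythroid cells ranged from 0.0744 CPM to 11.9 CPM per list and library.

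The 240 distal regions covered 3.15 Mb of the 11.2 Mb that all regions cover. Their width ran from 0.5 kb to 105.5 kb with a median of 8.5 kb. The nearest gene edge lay at a median of 59.5 kb, from 5.16 kb to 1763 kb away. They were found on 20 chromosomes, most often on chromosome 2 with 35, chromosome 10 with 25 and chromosome 13 with 21. Regions often came in series along the same stretch: when gaps of up to 100 kb are bridged, the 240 form 160 loci, of which 113 hold 1 region, 30 hold 2 and 17 hold 3 or more, with 67 regions in these 17. The authors named each region after a nearby gene's start (TSS, 160 regions) or end (TES, 80 regions), with a number where a gene has several. For 203 of them the gene in the name matched a current symbol of the annotation on the same chromosome. Of these, 144 lay upstream and 59 downstream of it. Synonyms, such as Rgnef for Arhgef28, were not matched, so the split leaves out regions named by them. Distances to genes hold for annotated genes only. The annotation gives the regions no strand, and whether the reads were counted by strand is not given in the sources used here, so sense and antisense RNA of a region cannot be told apart.

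In each library, distal regions were a small part of the RNA. They held 49091 counts in scrambled 1, 23726 in scrambled 2, 205568 under sh1137 and 73825 under sh830. As a share of the exon and region counts this is 0.122% (95% Wilson interval 0.121 to 0.123%), 0.0554% (0.0547 to 0.0561%), 0.576% (0.574 to 0.579%) and 0.169% (0.167 to 0.170%), intervals that cover counting error only. Both knockdown libraries were above both scrambled ones. The mean log2 share was 1.92 higher with knockdown, a 3.80-fold difference (exact permutation test, two-sided p = 0.333, the smallest that 2 against 2 libraries can give). Leaving out 1 library at a time moved the fold to between 2.05 (without sh1137) and 7.02 (without sh830); it was 5.62 without scrambled 1 and 2.56 without scrambled 2. Against the counts in gene introns instead, the distal counts came to 0.181% and 0.325% in scrambled 1 and 2, 0.747% under sh1137 and 0.947% under sh830, again without overlap.

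The plot of levels by library shows how the typical region compared with gene introns, which also come from RNA that is not kept as mature transcript. The median distal region had 0.145 CPM per kb in scrambled 1, and the median gene's introns had 0.794. In scrambled 2 the same medians were 0.103 and 0.282. With sh1137 the median region reached 0.906 CPM per kb beside 0.882 for introns, and under sh830 it reached 0.298 beside 0.285. Per kb, the median region was thus below the median intron in both scrambled libraries and close to it in both knockdown libraries. Intron medians are over the 13248 genes with introns whose exons were tested.

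**Figure D1:**
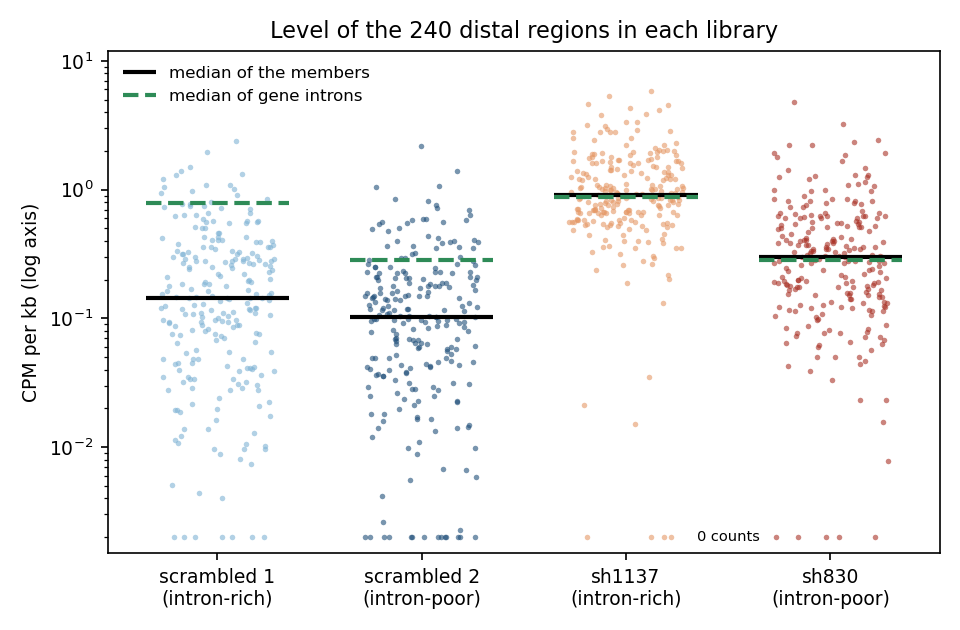
CPM per kb (log axis) of the 240 distal regions in each library, 1 point per region, with regions at 0 counts drawn at the bottom. The black line (median region) lies below the green dashed line (median gene intron) in scrambled 1 (0.145 against 0.794) and scrambled 2 (0.103 against 0.282), and the lines lie together under sh1137 and sh830.

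Region by region, 230 of the 240 had enough counts to be tested, and 154 rose, none fell and 76 did not pass an adjusted p of 0.05. The authors' choice of regions favours this direction. The background in the same fit was 9.53% of 14954 genes and regions called higher and 7.23% called lower, 54.6% of all tested regions called higher, and 6.06% of genes called higher and 7.79% lower. The distal risers spread over 103 of the 160 loci. Their log2 fold changes ran from 0.68 to 6.25 with a median of 2.59, leaving aside from the range Tmem68 TES 2, which had 0 counts in both controls and is given by its bound below, and 107 were above 2 and 36 above 4. Over the 230 tested regions the median log2 fold change was 2.08, with 226 above 0. The count rests on the term for the intron-rich and intron-poor pairs. Without that term, edgeR called 0 of the 240 and 0.0% of all features, with 121 of the regions at an unadjusted p under 0.05 and a median log2 fold change of 2.16. When 1 library was left out, with no pair term, 17 were called without scrambled 1, 7 without scrambled 2, 25 without sh1137 and 137 without sh830. DESeq2 with the pair term called 158, of which 145 were among the 154.

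Compared library by library, both knockdown libraries were above both scrambled ones in 166 of 240 regions and below both in 1. Over all features with a count the shares were 18.8% above and 12.4% below, and over all regions 63.2% were above. The 1 region below, Gm4850 TES, had 2 and 3 counts in the scrambled libraries and 0 in both knockdown libraries, which allows up to 3 counts in each. Of the 154 risers, 128 had no overlap between the groups. In the other 26, each hairpin was above its own partner, but scrambled 1 was above sh830.

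The 2 hairpins differed in size more than in direction, as the plot of both hairpins shows. Against scrambled 1, sh1137 was higher in 238 of 240 regions, with a median log2 ratio of 2.59 (quartiles 1.57 and 3.68). Against scrambled 2, sh830 was higher in 217, with a median of 1.48 (quartiles 0.79 and 2.49). The ratio was larger for sh1137 in 208 regions. Both ratios were above 0 in 216 regions, both below 0 in 1, and on opposite sides in 23. These counts hold 2 regions with 0 counts in every library, whose ratios come from the added 0.5 counts alone. Over all tested features the medians of the same ratios were -0.01 and 0.04, and over all 1107 regions 1.65 and 1.08. Wdr82 itself was at 24.8 CPM under sh1137 and 40.3 CPM under sh830. Since each hairpin was set against a different library, the hairpin and the pair cannot be told apart.

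**Figure D2:**
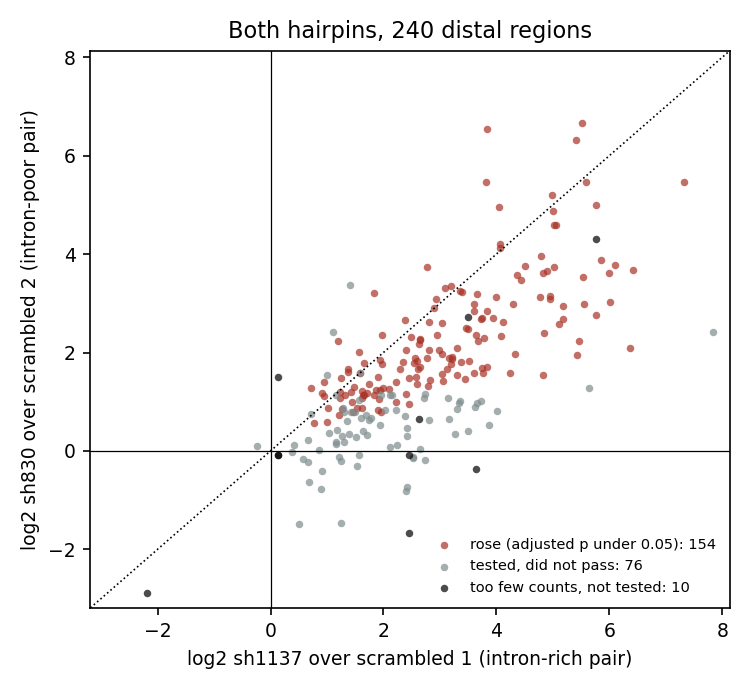
Log2 ratio of sh1137 to scrambled 1 (x axis) and of sh830 to scrambled 2 (y axis), 1 point per distal region, with 0.5 counts added to each count and a dotted line of equal ratios. The 154 regions that rose all have both ratios above 0, 208 of 240 points lie below the dotted line, and 23 have ratios on opposite sides of 0.

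The largest rises were in regions with few control counts, which a ranking by fold favours by itself. At 1 region per locus, with both knockdown libraries above both scrambled ones and a mean of at least 0.5 CPM, the 8 largest were near Tmem68, Pgrmc2, Lrp12, Thbs1, Cd93, Zeb2, Ctnnb1 and Id2. Tmem68 TES 2 (chr4:3407000-3410499), 65.7 kb downstream of Tmem68, a membrane protein gene, had 0 counts in both scrambled libraries, 73 under sh1137 and 23 under sh830. At 3 counts over both scrambled libraries, the limit that 0 allows, this is at least 32.4-fold higher (edgeR adjusted p = 0.018). Both knockdown libraries stand clear of the controls, but on fewer than 100 counts in all.

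Pgrmc2 TSS (chr3:41046500-41050499), 160 kb upstream of Pgrmc2, which encodes a haem-binding membrane protein, had 2, 0, 105 and 53 counts in scrambled 1, scrambled 2, sh1137 and sh830. Its summed ratio was 80.1 (95% exact interval 21.8 to 667 for counting error only), and its adjusted p in edgeR was 0.011. Lrp12 TSS 2 (chr15:39887500-39894999), 112 kb upstream of the lipoprotein receptor gene Lrp12, had 4, 0, 197 and 23 counts, a log2 fold change of 5.85 (SE 0.62, edgeR adjusted p = 0.0094).

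Cd93 encodes a surface receptor of myeloid and endothelial cells. The region 69.2 kb upstream of it, Cd93 TSS (chr2:148338500-148346999), had 4 and 2 counts in the scrambled libraries, 224 under sh1137 and 84 under sh830, a log2 fold change of 5.65 (SE 0.46, edgeR adjusted p = 0.0058). Ctnnb1 encodes beta-catenin, the effector of Wnt signalling. Ctnnb1 TSS (chr9:120750000-120775999), 66.5 kb upstream, had 8, 15, 667 and 209 counts, a log2 fold change of 5.06 (SE 0.65, edgeR adjusted p = 0.013). Neither group of libraries overlaps the other in these regions.

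Id2 encodes an inhibitor of helix-loop-helix transcription factors. The region Id2 TSS 3 (chr12:25908000-25914999), 127 kb upstream of it, had 9 and 10 counts in the scrambled libraries, 290 under sh1137 and 266 under sh830, and rose by 4.87 on the log2 scale (SE 0.34, edgeR adjusted p = 0.0046). The libraries of each group lay close together here: 0.233 ± 0.0215 CPM (SD, n = 2) against 6.94 ± 1.00 CPM (SD, n = 2).

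Zeb2, a zinc finger repressor active in myeloid cells, has a wide stretch without an annotated gene upstream of its start. Gm13476, the gene in the names of the regions there, was not matched in the annotation, so its distance is not known. Gm13476 TES (chr2:45049500-45154999), 76.6 kb upstream of Zeb2, is the widest of all distal regions with 105.5 kb. It had 2198 and 978 counts in scrambled 1 and 2, 12616 under sh1137 and 4991 under sh830, and rose by 2.46 on the log2 scale (SE 0.12, edgeR adjusted p = 0.0022). More than 1 Mb further on, Gm13476 TES 3 (chr2:46277500-46286999) had 2, 1, 132 and 23 counts, a summed ratio of 52.4 (95% exact interval 17.6 to 257 for counting error only; edgeR adjusted p = 0.012). The next region along, Gm13476 TES 2 (chr2:46288500-46298999), 1316 kb from Zeb2 and among the 3 farthest from any annotated gene, had 14, 12, 267 and 51 counts and rose by 3.31 (SE 0.64, edgeR adjusted p = 0.0295). All 3 were higher in both knockdown libraries than in either control.

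Other distal regions already had RNA in control cells. The 6 with the highest CPM per kb over the scrambled libraries were between 0.891 (Rrn3 TSS) and 2.28 (Slc22a8 TSS), above the medians of 0.145 and 0.103. These regions were chosen by their control level, which is also the base of the fold, so their folds are not set against the 8 largest. Of these 6, 4 rose, with log2 fold changes from 1.15 to 1.52. This is a similar share to the 154 of all 230 distal regions tested, and 54.6% of all regions tested rose. Cxcr4 TSS 2 (chr1:130612000-130669999) spans 58 kb and starts 123 kb upstream of Cxcr4, the receptor of the chemokine Cxcl12. It had 2894 and 2497 counts in the scrambled libraries, 9411 under sh1137 and 5800 under sh830, and rose by 1.48 on the log2 scale (SE 0.18, edgeR adjusted p = 0.012).

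Gp49a TSS 2 (chr10:51120500-51157999), 42.5 kb upstream of the immunoglobulin-like receptor gene Lilr4b, had 2325, 883, 5539 and 2973 counts in scrambled 1, scrambled 2, sh1137 and sh830. It rose by 1.52 (SE 0.11, edgeR adjusted p = 0.0046). LOC100504525 TES (chr1:103765000-103799499) had 2806, 1459, 6008 and 3251 counts and rose by 1.15 (SE 0.089, edgeR adjusted p = 0.0054), although the nearest gene edge, the end of Cntnap5b, lies 1382 kb away. This region thus had a high control level far from any annotated gene, but LOC100504525, the gene in its name, was not matched in the annotation. Rrn3 TSS (chr16:13754500-13759499), 21.3 kb upstream of the RNA polymerase I factor gene Rrn3, had 194, 170, 420 and 411 counts and rose by 1.22 (SE 0.19, edgeR adjusted p = 0.019).

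The remaining pair did not pass. Slc22a8 TSS (chr19:8593000-8593499), at 0.5 kb the narrowest of these regions and 72.2 kb upstream of an organic anion transporter gene, had 49, 44, 101 and 103 counts (log2 fold change 1.16, SE 0.32, edgeR adjusted p = 0.066). Atp5o TSS (chr16:91962500-91964999), 30.6 kb upstream of a gene of the mitochondrial ATP synthase, had 61, 141, 193 and 236 counts (1.20, SE 0.35, edgeR adjusted p = 0.073). In both, each knockdown library was above each scrambled library.

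**Figure D3:**
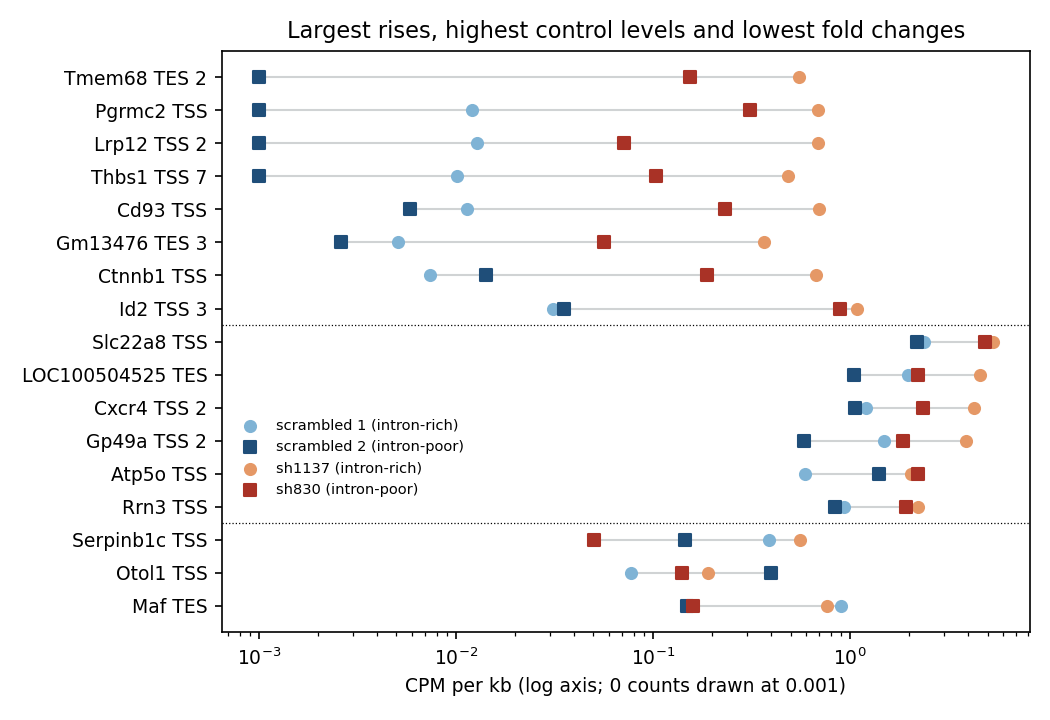
CPM per kb (log axis) of 17 distal regions in the 4 libraries: the 8 largest rises, the 6 with the highest control level and the 3 lowest fold changes, separated by dotted lines (circles, intron-rich pair; squares, intron-poor pair). In the upper 14 both knockdown libraries lie to the right of both scrambled ones; for Tmem68 TES 2 both scrambled libraries are at 0 and their symbols coincide.

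No distal region fell, and the 3 lowest fold changes were all small or uncertain. Serpinb1c TSS (chr13:33003500-33009999), 13.5 kb upstream of a serpin gene, had 105 counts in scrambled 1, 38 in scrambled 2, 137 under sh1137 and 14 under sh830 (log2 fold change -0.31, SE 0.55, edgeR adjusted p = 0.73). Otol1 TSS (chr3:69767000-69769499), 42 kb upstream of Otol1, had 8, 40, 18 and 15 counts (-0.27, SE 0.78, edgeR adjusted p = 0.84). Maf TES (chr8:118106000-118118499), 88.3 kb downstream of Maf, a basic leucine zipper factor of macrophages, had 466, 75, 361 and 85 counts (-0.09, SE 0.22, edgeR adjusted p = 0.80). In all 3 the groups overlap. For Maf TES the intron-rich and intron-poor pairs differed far more than the groups.

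The gap between the hairpins was widest, among regions with at least 50 counts, in Gm9880 TES, LOC100503197 TES, Reep3 TES and Zfp710 TSS 2. Gm9880 TES (chr17:13625000-13633999) had 0 and 4 counts in scrambled 1 and 2, 104 under sh1137 and 25 under sh830, log2 ratios of 7.83 and 2.42 (edgeR adjusted p = 0.051). LOC100503197 TES (chr1:90482500-90485999) had 2, 20, 114 and 52 counts, ratios of 5.64 and 1.27 (edgeR adjusted p = 0.10). These ratios turn on few control counts. Zfp710 TSS 2 (chr7:87150000-87153999), 15.7 kb upstream of a zinc finger gene, had 8, 5, 97 and 4 counts, ratios of 3.65 and -0.37, and did not pass the filter on low counts. Reep3 TES is described with its locus below. Each of these 4 was higher under sh1137 than in both controls; under sh830, Zfp710 TSS 2 was the exception that was not.

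The 5 loci with most regions held 29 of the 240, and 23 of the 29 rose. Of all distal regions tested, 154 of 230 rose, and of all regions tested 54.6%. The largest lies between Enc1, which encodes a kelch protein, and Arhgef28, also known as Rgnef. Its 7 regions stretch over 194 kb (chr13:98281000-98474999), with the ends of both genes facing them at 258 kb and 194 kb. Summed over the 7, the counts were 1268 and 445 in scrambled 1 and 2, 17435 under sh1137 and 3533 under sh830. All 7 rose, by 3.28 to 4.64 on the log2 scale (edgeR adjusted p from 0.0053 to 0.034).

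Most of this RNA came from 1 region. Rgnef TES 2 (chr13:98324500-98422999) is 98.5 kb wide and had 1183, 407, 15557 and 3076 counts in scrambled 1, scrambled 2, sh1137 and sh830, a log2 fold change of 3.36 (SE 0.25, edgeR adjusted p = 0.0053). Its level was 0.290, 0.102, 4.17 and 0.732 CPM per kb. Rgnef TES 3 (chr13:98470000-98474999), the last of the series towards Arhgef28, was lower, at 0.0193, 0.00992, 0.670 and 0.108 CPM per kb. It still rose by 4.52 (SE 0.62, edgeR adjusted p = 0.015). On the Enc1 side, Enc1 TES was lower too, at 0.0449, 0.0425, 0.565 and 0.348 CPM per kb. The first of the series, Enc1 TES 2 (chr13:98281000-98283999), was the 1 region of the 7 with more counts for sh830 (148) than for sh1137 (97), beside 15 and 10 in the controls.

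Upstream of Thbs1, the gene of the secreted glycoprotein thrombospondin-1, 6 regions lay within 97.5 kb (chr2:117817500-117914999), the nearest of them 22.7 kb from the gene's start. They summed to 211 and 66 counts in the scrambled libraries, 2310 under sh1137 and 529 under sh830. All 6 rose, by 2.13 to 5.84 (edgeR adjusted p from 0.0046 to 0.029). The largest of these rises was in Thbs1 TSS 7 (chr2:117865500-117874999), 62.7 kb upstream of the gene, with 4, 0, 174 and 42 counts. Nearest the gene, Thbs1 TSS (chr2:117904000-117914999) had 9, 1, 275 and 58 counts and rose by 5.16 (SE 0.44, edgeR adjusted p = 0.0064). The 6 regions were between 0.483 and 1.87 CPM per kb under sh1137, and between 0.104 and 0.609 under sh830.

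Jun encodes a subunit of the AP-1 transcription factor. Upstream of its start, 7 regions spread over 136 kb (chr4:94783000-94918999), from 64.1 kb outward, with 1307, 417, 4485 and 904 counts in scrambled 1, scrambled 2, sh1137 and sh830. Of these 7, 4 rose, and the other 3 had log2 fold changes of 1.01 to 1.88 with edgeR adjusted p of 0.069 to 0.11. The widest, Jun TSS 3 (chr4:94854500-94890499), had 439, 290, 2191 and 599 counts and rose by 1.73 (SE 0.35, edgeR adjusted p = 0.033). Jun TSS 4 (chr4:94783000-94807499), nearest to the gene, had 513, 43, 1111 and 128 counts and rose by 1.34 (SE 0.17, edgeR adjusted p = 0.013). The others that rose were Jun TSS and Jun TSS 6. In Jun TSS 4, Jun TSS and Jun TSS 6 scrambled 1 was above sh830, so the groups overlap although each hairpin was above its own partner.

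Between Mir29b-1 and Mkln1, the muskelin gene, 4 regions covered 135.5 kb of a 147 kb stretch (chr6:31168500-31315499). The starts of both genes face the stretch, at 155 kb and 33.3 kb. The 4 summed to 3462 and 728 counts in the scrambled libraries, 8421 under sh1137 and 2005 under sh830. All 4 rose, by 1.23 to 1.72 (edgeR adjusted p from 0.0053 to 0.018). Here too scrambled 1 was above sh830, and in none of the 4 were both knockdown libraries above both controls. The locus differs from that of Enc1 and Arhgef28 in its control level, 0.618 and 0.133 CPM per kb in scrambled 1 and 2 against 0.200 and 0.0721. The miR-29b sequences given above belong to the left neighbour, whose exon interval had at most 0.317 CPM in any library.

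Downstream of Reep3, a gene for a protein that shapes the endoplasmic reticulum, 5 regions lay within 105.5 kb (chr10:66300500-66405999), from 68.3 kb outward. They had 384 and 325 counts in scrambled 1 and 2, 1831 under sh1137 and 494 under sh830, and 2 of the 5 rose. Reep3 TES (chr10:66300500-66311999), the farthest from the gene, had 5, 8, 413 and 38 counts and rose by 4.58 (SE 1.00, edgeR adjusted p = 0.038). Reep3 TES 2 (chr10:66375000-66386999) had 198, 111, 962 and 263 counts and rose by 1.82 (SE 0.33, edgeR adjusted p = 0.025). The other 3 (Reep3 TES 3, 4 and 5) were above scrambled 1 under sh1137 and below scrambled 2 under sh830.

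**Figure D4:**
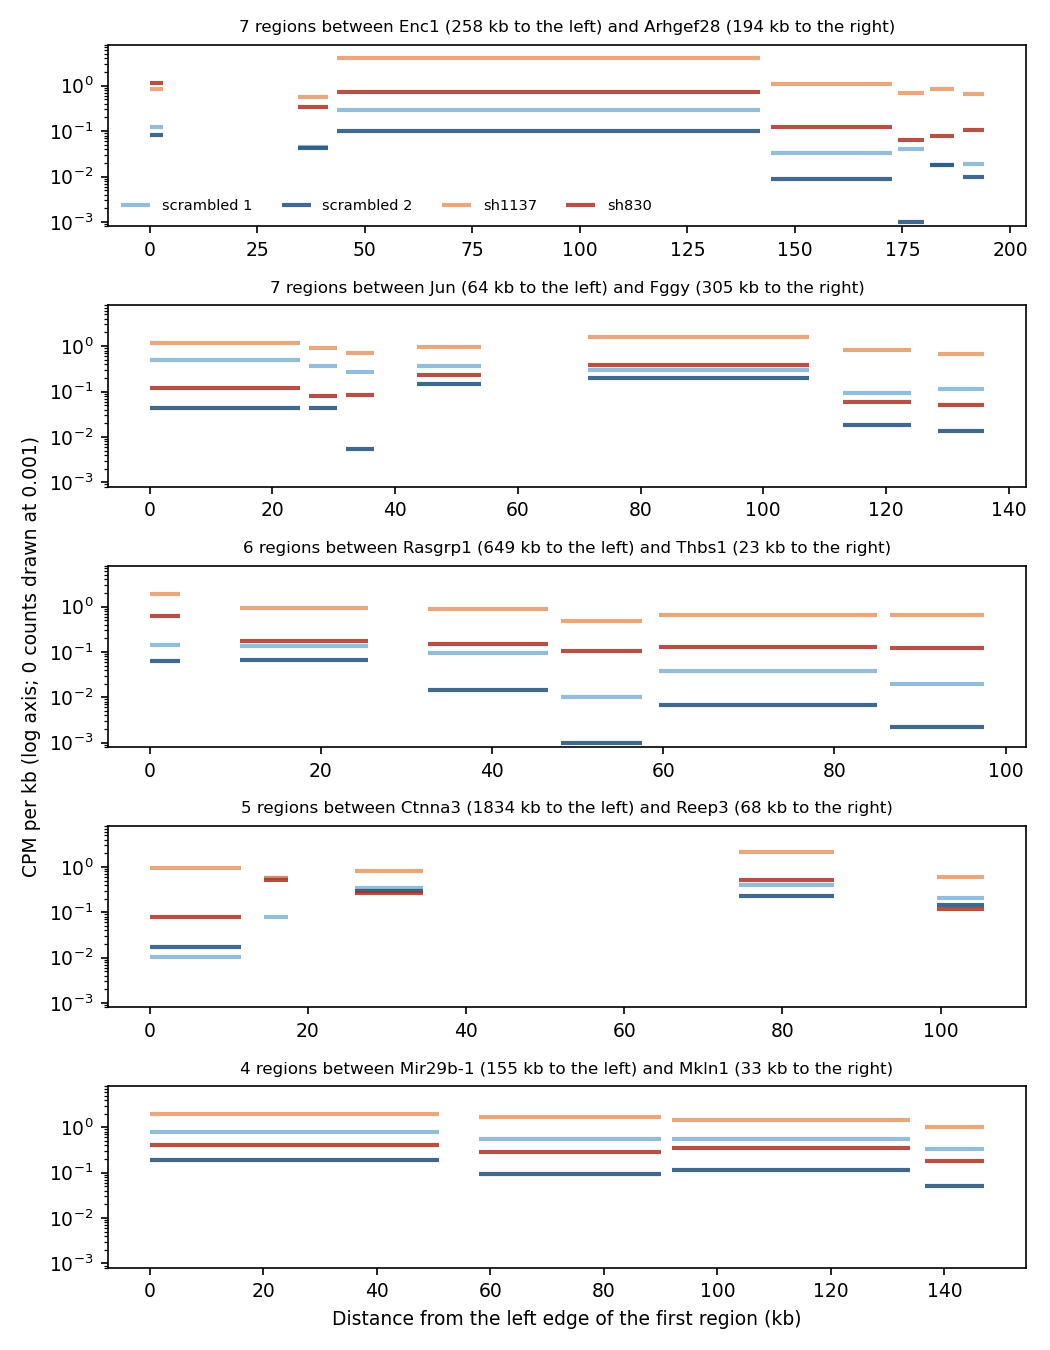
CPM per kb (log axis) of each region, drawn as a bar over its width, against the distance from the left edge of the first region in kb, for the 5 loci with most regions and the 4 libraries. The sh1137 bar is above both scrambled bars in every region but Reep3 TES 4, where it (0.563) is just below scrambled 2 (0.579); bars of similar level overlie each other.

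The third of the widest regions, 4921513I03Rik TSS (chr10:120059500-120143999, 84.5 kb), lies between Hmga2 and Msrb3. It had 2003, 673, 8995 and 2253 counts in scrambled 1, scrambled 2, sh1137 and sh830 and rose by 1.99 (SE 0.17, edgeR adjusted p = 0.0062). The region farthest from any annotated gene, Flrt2 TSS (chr12:95165000-95167499), 1763 kb from Flrt2, had 0, 1, 2 and 0 counts and was not tested. At the other extreme, the regions just inside the 5 kb limit to a gene start were Tekt3 TSS at 5.16 kb with 192, 162, 1106 and 816 counts and Ifnar2 TSS at 5.53 kb with 231, 182, 992 and 513. Just outside that limit were the regions named Hmha1 TES at 4.91 kb with 36, 30, 112 and 54 counts and Wdfy4 TSS at 4.75 kb with 13, 5, 204 and 49. At the 30 kb limit to a gene end, the regions just inside were Rps6ka1 TES at 30.2 kb with 46, 61, 132 and 142 counts and Serpinb1c TSS, given above. Just outside were Fam46c TES at 29.96 kb with 9, 32, 64 and 114 counts and Tm6sf1 TSS at 29.1 kb with 44, 28, 185 and 82. The regions on either side of each limit, apart from Serpinb1c TSS, were all higher in both knockdown libraries.

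The risers, 154 of the 230 distal regions tested, were also counted by place and width. Ordered by distance to the nearest gene edge, 40 of the nearest 80 regions (5.16 to 39.2 kb), 54 of the middle 80 and 60 of the farthest 80 (90 to 1763 kb) rose. The median log2 ratio went from 2.31 through 2.62 to 2.80 for sh1137 and from 1.05 through 1.52 to 1.69 for sh830. Ordered by width, 33 of the narrowest 80, 50 of the middle 80 and 71 of the widest 80 rose, but wide regions also hold more counts, and the median ratio was highest in the middle group (2.96 for sh1137 and 1.78 for sh830). Regions with gene ends facing on both sides had median ratios of 3.67 and 2.33 for the hairpins, and 26 of 34 rose. Between gene starts on both sides the medians were 2.55 and 1.47, and 64 of 98 rose. With a start on one side and an end on the other they were 2.38 and 1.25, and 64 of 108 rose. In loci of 3 or more regions, 54 of 67 rose, against 64 of 113 among regions that stand alone, of which 104 were tested. The number with both knockdown libraries above both scrambled ones had another order: 42 of these 67 and 77 of these 113. From the nearest to the farthest 80 regions it was 50, 61 and 55, and from the narrowest to the widest 55, 56 and 55. Between gene ends it was 28 of 34, between gene starts 66 of 98, and with a start and an end 72 of 108. Neighbours in a locus share their surroundings, and none of these differences was tested.

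**Figure D5:**
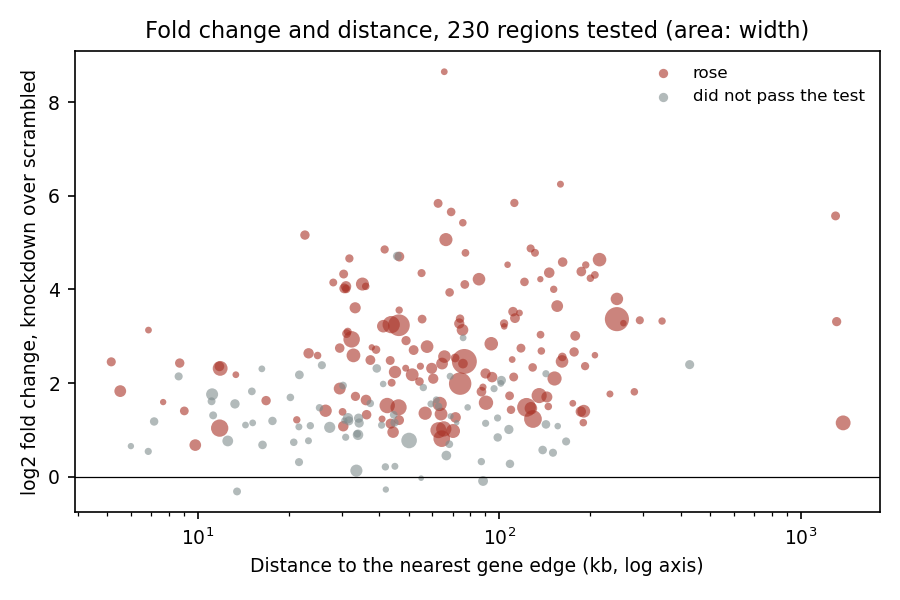
Log2 fold change of knockdown over scrambled in edgeR (y axis) against the distance to the nearest gene edge in kb (x axis, log scale) for the 230 regions tested, with the area of a point growing with the region's width. Regions that rose (red) are found at all distances, from 5.16 kb to beyond 1000 kb, and the grey points, which did not pass, all lie below a log2 fold change of 5. The topmost point, Tmem68 TES 2, had 0 counts in both scrambled libraries, so its height is a fitted value that depends on the fit and not a measured fold.

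Beside the other classes of region, the distal ones had the largest share of risers and the largest median, 154 of 240 with a median log2 fold change of 2.08 over the tested ones. With a gene start within 5 kb, 110 of 203 rose (median 1.51), with a gene end within 30 kb 106 of 223 (1.39), and of the regions that overlap a gene 214 of 441 (1.09). The distal regions were also wider, with a median of 8.5 kb against 6, 5.5 and 6 kb in these 3 classes. Their median control level was the lowest: 0.145 and 0.103 CPM per kb in scrambled 1 and 2, against 0.288 and 0.189, 0.273 and 0.153, and 0.467 and 0.300. The part of width and control level in these shares and medians was not tested. The difference between classes was compared on their summed counts within each library, with an exact test that cannot pass 0.05 with 2 against 2 libraries. For every count in regions near a gene start, the distal regions had 1.31 and 0.880 counts in scrambled 1 and 2, 1.85 under sh1137 and 1.39 under sh830, a rise of 0.58 on the log2 scale (exact permutation test, two-sided p = 0.333, the smallest possible). Per count in regions near a gene end, the values were 0.961, 0.591, 1.14 and 0.735, which overlap (0.28, exact p = 0.667). This difference turned to -0.069 without scrambled 2 and to -0.036 without sh1137, settings that leave 1 library without its partner. Per count in regions that overlap a gene, they were 0.373, 0.300, 0.528 and 0.431 (0.51, exact p = 0.333). Without the 5 fullest regions of each class the differences were 0.23, 0.11 and 0.42, all with overlapping groups (exact p = 0.667). Within the intron-rich and the intron-poor pair, the ratio was higher in the knockdown library in each case: by 0.50 and 0.66 on the log2 scale against regions near a gene start, by 0.25 and 0.31 against regions near a gene end, and by 0.50 and 0.53 against regions that overlap a gene. Without the 5 fullest regions of each class, these differences within pairs were 0.18 and 0.29, 0.043 and 0.17, and 0.36 and 0.49. The overlap is thus between the pairs, and with 1 library a side within a pair there is no test.

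Most tested genes on either side of the distal regions did not pass. A larger share rose than among all genes, a difference that was not tested. Of 311 flanking genes, 249 were tested, and 29 rose (11.6%) and 18 fell (7.23%), beside 6.06% and 7.79% of all genes tested. Their median log2 fold change was 0.01. Where the end of a gene faced the region, 10 of 81 tested genes rose and 1 fell. Where the start did, 19 of 171 rose and 17 fell. Of the 154 regions that rose, 142 had a nearer gene that was tested, and of these genes, counted once per region, 15 rose, 5 fell and 122 did not pass. Over the 208 tested pairs of a region and its nearer gene (141 genes), the log2 fold changes had a Spearman correlation of 0.21 and a Pearson correlation of 0.26. Both members of a pair come from the same 4 libraries and genes recur, so this is a description.

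Near the regions described above, genes and regions went together in some places and apart in others. Cxcr4 was at 66.9 and 121 CPM in the scrambled libraries, 147 under sh1137 and 235 under sh830, and rose by 1.05 on the log2 scale (SE 0.092, edgeR adjusted p = 0.0064), like its upstream region. Enc1 was at 16.8, 10.8, 40.8 and 25.5 CPM and rose by 1.26 (SE 0.11, edgeR adjusted p = 0.0064). Zfpm2, a gene for a cofactor of GATA proteins that lies beyond Lrp12 TSS 2 at 592 kb, was at 0.169, 0.322, 2.59 and 1.85 CPM and rose by 3.16 (SE 0.51, edgeR adjusted p = 0.021). In each of these 3 genes the groups do not overlap.

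Lilr4b went the other way from the region Gp49a TSS 2: it was at 1507 and 1239 CPM in the scrambled libraries, 610 under sh1137 and 878 under sh830, and fell by 0.90 (SE 0.21, edgeR adjusted p = 0.043). Lilr4b has a near-identical neighbour copy, so its counts are uncertain. Atp5o was at 85.4, 179, 66.2 and 131 CPM and fell by 0.41 (SE 0.083, edgeR adjusted p = 0.033), with overlapping groups. Thbs1 was at 25.2, 36.0, 38.1 and 175 CPM (log2 fold change 1.46, SE 0.39, edgeR adjusted p = 0.060). In Thbs1 the gene's level was highest under sh830, whereas all 6 of its regions had more counts under sh1137. Cd93 was at 1734, 1582, 1287 and 1251 CPM (-0.39, SE 0.11, edgeR adjusted p = 0.072), beside a region that rose by 5.65. The log2 fold changes of Id2 (0.40), Zeb2 (0.17), Ctnnb1 (0.16), Reep3 (0.02), Mkln1 (-0.03) and Jun (-0.16) did not pass either, with edgeR adjusted p from 0.059 to 0.91.

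Genes of the factors that act on such transcripts were looked at by list. Of 14 genes for Wdr82 and its partner complexes, 2 rose and 2 fell, beside the 6.06% of genes that rose and 7.79% that fell, with a median log2 fold change of -0.20 against -0.01 for all genes. The 2 that fell include Wdr82 itself, the target of the hairpins, so its fall says nothing about the partners. Ppp1r10, which anchors the PP1 phosphatase in the complex with Wdr82, was at 71.5, 73.1, 266 and 254 CPM in scrambled 1, scrambled 2, sh1137 and sh830 and rose by 1.85 (SE 0.088, edgeR adjusted p = 0.0020). Zc3h4 rose by 0.76 (SE 0.13, edgeR adjusted p = 0.022), and Hcfc1, a subunit of SET1 complexes, fell by 0.50 (SE 0.086, edgeR adjusted p = 0.023).

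Of 26 factors of termination, of the Integrator complex and of 3' end formation, 1 rose and 4 fell (median -0.23). Over all genes tested, 6.06% rose and 7.79% fell. Ints6, an Integrator subunit, rose by 0.45 (SE 0.10, edgeR adjusted p = 0.0415). Cpsf3, the nuclease that cuts the 3' end, fell by 0.55 (SE 0.092, edgeR adjusted p = 0.022), and Cstf2, which binds downstream of the cut, fell by 0.53 (SE 0.091, edgeR adjusted p = 0.023). The others that fell were Ints11 and Cpsf2.

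Of 22 genes of the RNA exosome and its adaptors, none rose and 2 fell (median -0.31), near the 7.79% of all genes tested that fell. These were Exosc8 by 0.55 (SE 0.11, edgeR adjusted p = 0.0325) and Exosc2 by 0.46 (SE 0.11, edgeR adjusted p = 0.049), both subunits of the core. Among 22 factors and coactivators of macrophage enhancers, none rose and Spi1 fell by 0.45 (SE 0.095, edgeR adjusted p = 0.036), from 161 and 218 CPM in the scrambled libraries to 109 under sh1137 and 172 under sh830, with overlap. The median of these 22 was 0.08. The part of the changes in these factors, other than the targeted Wdr82, in the rise of the distal regions was not tested.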

How the data were processed

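Ribosomal RNA-depleted total RNA of 4 untreated macrophage libraries was analysed. For each library the authors deposited unscaled counts of reads in the exons of genes and in regions, and in the introns of genes. The values are whole numbers with unequal totals, from which the unit was taken. SICER, TopHat 1.3.1, Cuffdiff 2.1.1, Cufflinks 2.1.1 and the build mm9 are listed in the submitters' processing notes. The counting tool and its use of strand are not given in the sources used here. The authors' deposited annotation holds other data: the places of UCSC known genes in mm9 and those of the regions, which per the file headers come from a SICER comparison of hairpin and LMP libraries. Of 21761 genes, 21615 had a symbol in RefSeq tables.

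Regions and gene exons entered a single fit in edgeR 4.0.16 under R 4.3.3: filterByExpr, TMM factors from the genes, quasi-likelihood fit (earlier, legacy form) with a term for the group and a term for the intron-rich or intron-poor pair, 1 residual degree of freedom, and Benjamini-Hochberg adjustment over 14954 features at 0.05. The pair term was taken from the intron share, a measured difference between libraries that the labels do not name. An SE is the log2 fold change divided by the square root of F. Ratios of hairpin to partner used 0.5 added counts. CPM used effective library sizes. DESeq2 1.42.0 was an alternative. Shares were compared by exact permutation (SciPy 1.17.1), and intervals cover counting error only.

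The members, lists and naming rule were chosen with earlier results of these data known. The rule took the 8 largest rises (1 per locus, mean of at least 0.5 CPM, groups not overlapping), the 6 highest control levels, every fall or else the 3 lowest fold changes, the 4 widest hairpin gaps with 50 counts or more, the 5 fullest loci, the 3 farthest and 3 widest regions, 2 regions on each side of each limit, the nearest gene on each side, and for 4 gene lists the 2 genes with the smallest p among those that rose and among those that fell. Chromosome 18 was passed over.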

Additional observations from a re-analysis of the deposited data

Results flagged for a closer look

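In 7 distal regions named in the report, with at least 50 counts, sh1137 was above scrambled 1 while sh830 was below scrambled 2, or the reverse. With 1 library on each side, the difference between the hairpins was not tested. The log2 ratio of sh1137 exceeded that of sh830 by 4.02 in Zfp710 TSS 2, 2.93 in Reep3 TES 4, 2.72 in Otol1 TSS, 2.00 in Serpinb1c TSS, 1.83 in Reep3 TES 5 and 1.35 in Reep3 TES 3. In Maf TES the order was the opposite, with a difference of -0.34. None of the 7 passed the edgeR test, and 1 of them, Zfp710 TSS 2, was not tested. Of the 7, 3 are regions of the Reep3 locus, where Reep3 TES and Reep3 TES 2 rose. No group held 4 or more libraries, so single libraries far from their group could not be looked for in that way.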

How the results depend on the processing

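No distal region was called lower under any setting run. The number called higher was 154, and 0 with the group term alone, 21 with a term for the crossed split, 93 in DESeq2 with the group alone and 13 with library sizes from introns and the group alone. Leaving out 1 library at a time, with the group term alone, gave between 7 and 137 (17 without scrambled 1, 7 without scrambled 2, 25 without sh1137, 137 without sh830). The other settings gave 134 to 176, among them 170 with intron-based library sizes and the pair term, 176 without a filter on low counts, and 171 with edgeR's current default fit, which was chosen after seeing the data. Other member rules gave 279, 181, 228 and 243 regions. The median log2 fold change was 1.23 to 2.75 when a library was left out. Flanking genes numbered 29 higher and 18 lower, and 0 each way with the group term alone. Wdr82 kept its direction, with log2 fold changes of -1.89 (group alone, adjusted p = 0.44), -1.91 (crossed split) and -1.94 (intron-based, group alone) that did not pass, and from -2.30 to -1.58 when a library was left out (-1.59 without sh1137). The ratio to regions near a gene end was between -0.069 and 0.63 when a library was left out. The fold change of Serpinb1c TSS was 0.18 with the group alone in edgeR and 0.20 in DESeq2, and 1.04 without either scrambled 1 or sh830; Maf TES gave 1.61 and 0.53 without these, and Otol1 TSS 1.11 without scrambled 2. The cause of these changes was not tested. Of 383 values of 24 named regions under these settings, 275 kept their direction and side of the threshold, 89 no longer passed, 12 newly passed and 7 changed sign. No paired analysis was possible because the hairpin libraries carry no replicate number in the labels; the pair term rests on measured intron shares instead. In control libraries depth limits single regions: 7 and 14 of the 240 had 0 counts in scrambled 1 and 2.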
